A study of Mus musculus with 21 samples.

Results

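The immediate early and AP-1 genes described here are Fos, Fosb, Jun, Junb, Jund, Egr1, Nr4a1, Ier2, Dusp1 and Zfp36. These 10 genes were taken by symbol from the count tables of all 21 libraries, each of which listed 17516 gene symbols, and every table held all 10. RNA was measured by single-cell sequencing in CD8 T cells of the mouse line OT1, which carries a transgenic T cell receptor for an ovalbumin peptide. Naive cells were taken on day 0, before activation. All other cells were activated on day 0 with beads coated with antibodies to CD3 and CD28. They were kept without added cytokine to day 3 or day 5, or with IL-2, IL-15 or IL-2v to day 3, day 5 or day 10, each cytokine at 5 or 50 IU/mL. The labels describe IL-2v only as a mutant IL-2. Day 10 had no library without cytokine here. Each condition was 1 library, so 1 condition could not be tested against another, and no model over the crossed cytokines, doses and days was fitted. The labels name neither the number of animals nor whether the beads were still present on each day.

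The treatment labels of the 50 IU/mL IL-2 libraries name interleukin-3 and those of the 50 IU/mL IL-15 libraries name interleukin-16, and the titles were followed instead. The extraction label describes sorting of live CD44+ CD45.1+ CD8+ tumour-infiltrating T cells, whereas the growth label describes culture with beads, so the handling of the cells before capture is not settled by the labels. After filtering, the libraries held 3250 to 7105 cells and 10589950 to 32648496 unique molecular identifiers (UMIs, each counting 1 captured RNA molecule), with a median of 3016 to 5065 UMIs per cell. Pairs of libraries shared 1 to 19 cell barcodes. The 4 T cell genes Cd3d, Cd3e, Cd3g and Cd2 summed to 1950 to 4019 CPM (UMI counts scaled to a common library total) and Cd8a with Cd8b1 to 308 to 1629 CPM in every library. Cd4 reached at most 4.39 CPM, and 4 B cell genes summed to at most 17.8 CPM.

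Immediate early genes are transcribed directly from signalling, by factors already present in the resting cell, and their RNA is usually short-lived. In T cells the antigen receptor and CD28 drive them through MAP kinases and calcium, and cell dissociation, sorting and heat can drive them too. AP-1 is the dimer made by a Fos family protein with a Jun family protein, or by Jun proteins alone. Among the 10 genes, Fos and Fosb encode Fos partners, Jun, Junb and Jund encode Jun partners, Egr1 and Nr4a1 encode other transcription factors, Ier2 encodes a small nuclear protein, Dusp1 encodes a phosphatase that inactivates MAP kinases, and Zfp36 encodes tristetraprolin, which promotes decay of mRNAs with AU-rich elements.

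RefSeq windows around the start site were found for 8 of the 10 genes, all except Egr1 and Ier2. RefSeq places the starts of Nr4a1, Dusp1 and Zfp36 inside the longer GENCODE gene spans given below. For Nr4a1 and Dusp1 they are the starts of shorter GENCODE transcripts, and the Zfp36 window lies within an exon of the longest transcript. The Jund window ends before the GENCODE start and does not cover it. The bases before the start are shown for Fos and Dusp1, whose levels ordered the libraries most alike, and for Jun, which differed most often between libraries. They are also shown for Nr4a1, which was lower in every library of day 10 than in every library of day 3. All are GRCm38.p6, written 5′ to 3′ on the gene's strand. Capitals mark TGACG on either strand (CGTCA where it lies on the reverse strand), the core of the cAMP response element bound by CREB and ATF proteins, and TGACATCA, the variant known from the Jun promoter. The Dusp1 stretch stops before bases annotated as an exon in another transcript.
Fos, chr12:85473640-85473889, plus strand: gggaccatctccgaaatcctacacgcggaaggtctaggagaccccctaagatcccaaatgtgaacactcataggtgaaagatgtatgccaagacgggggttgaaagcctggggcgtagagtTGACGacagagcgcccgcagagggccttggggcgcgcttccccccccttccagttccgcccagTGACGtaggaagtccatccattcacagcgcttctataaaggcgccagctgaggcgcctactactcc
Jun, chr4:95052223-95052472, minus strand: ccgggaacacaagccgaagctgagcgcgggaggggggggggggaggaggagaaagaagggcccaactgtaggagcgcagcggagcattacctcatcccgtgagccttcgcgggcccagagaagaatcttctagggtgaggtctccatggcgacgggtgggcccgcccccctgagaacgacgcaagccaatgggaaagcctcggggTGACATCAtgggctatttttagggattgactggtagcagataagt
Nr4a1, chr15:101266596-101266845, plus strand: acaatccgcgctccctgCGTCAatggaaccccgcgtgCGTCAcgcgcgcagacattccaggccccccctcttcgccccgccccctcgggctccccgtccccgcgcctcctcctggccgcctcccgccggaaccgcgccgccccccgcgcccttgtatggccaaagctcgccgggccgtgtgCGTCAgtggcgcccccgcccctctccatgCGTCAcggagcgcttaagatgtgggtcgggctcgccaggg
Dusp1, chr17:26508520-26508722, minus strand: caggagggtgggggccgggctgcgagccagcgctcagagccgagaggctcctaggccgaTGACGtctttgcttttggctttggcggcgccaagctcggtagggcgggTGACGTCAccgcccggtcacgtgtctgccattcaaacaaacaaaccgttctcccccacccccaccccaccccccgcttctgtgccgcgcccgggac

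In windows of 300 bases, which also take in 50 bases after the start, TGACG on either strand occurred in 20.8% of all 32851 RefSeq windows and in 5 of the 8 windows of these genes: 4 times in Nr4a1, 3 times in Dusp1, 2 times in Fos and once each in Fosb and Junb. The full TGACGTCA, which contains TGACG on both strands, occurred in 1.79% of windows and among these genes only in Dusp1. TGACATCA occurred in 3.62% of windows and among these genes only in Jun. The AP-1 motif TGANTCA, in 7.81% of windows, had no match in the 8 windows, that of Jund included, and the CArG box of serum response factor, in 1.63% of windows, matched only in Zfp36. These are matches of letters within the windows and not measured sites.

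UMIs were summed over the cells of each library and given as CPM, so that a value describes the mean of the cells and cannot tell fewer positive cells from less RNA per cell. Intervals in parentheses are exact 95% intervals that cover counting error only. A gene entered a comparison of 2 libraries when it reached 20 CPM in either, and it was called higher or lower when log2(CPM + 1) differed by at least 1. A gene that reached 20 CPM in only 1 of the 2 libraries could be called in 1 direction only. The median log2 difference of all genes tested lay between -0.37 and 0.30 over the 53 comparisons made. Fos, Fosb, Nr4a1 and Dusp1 never reached 20 CPM in any of the 21 libraries and so never entered a comparison. Egr1 reached it in 2 libraries, Zfp36 in 18, Jun in 20, and Junb, Jund and Ier2 in all 21. The plot of member levels shows all values.

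**Figure D1:**
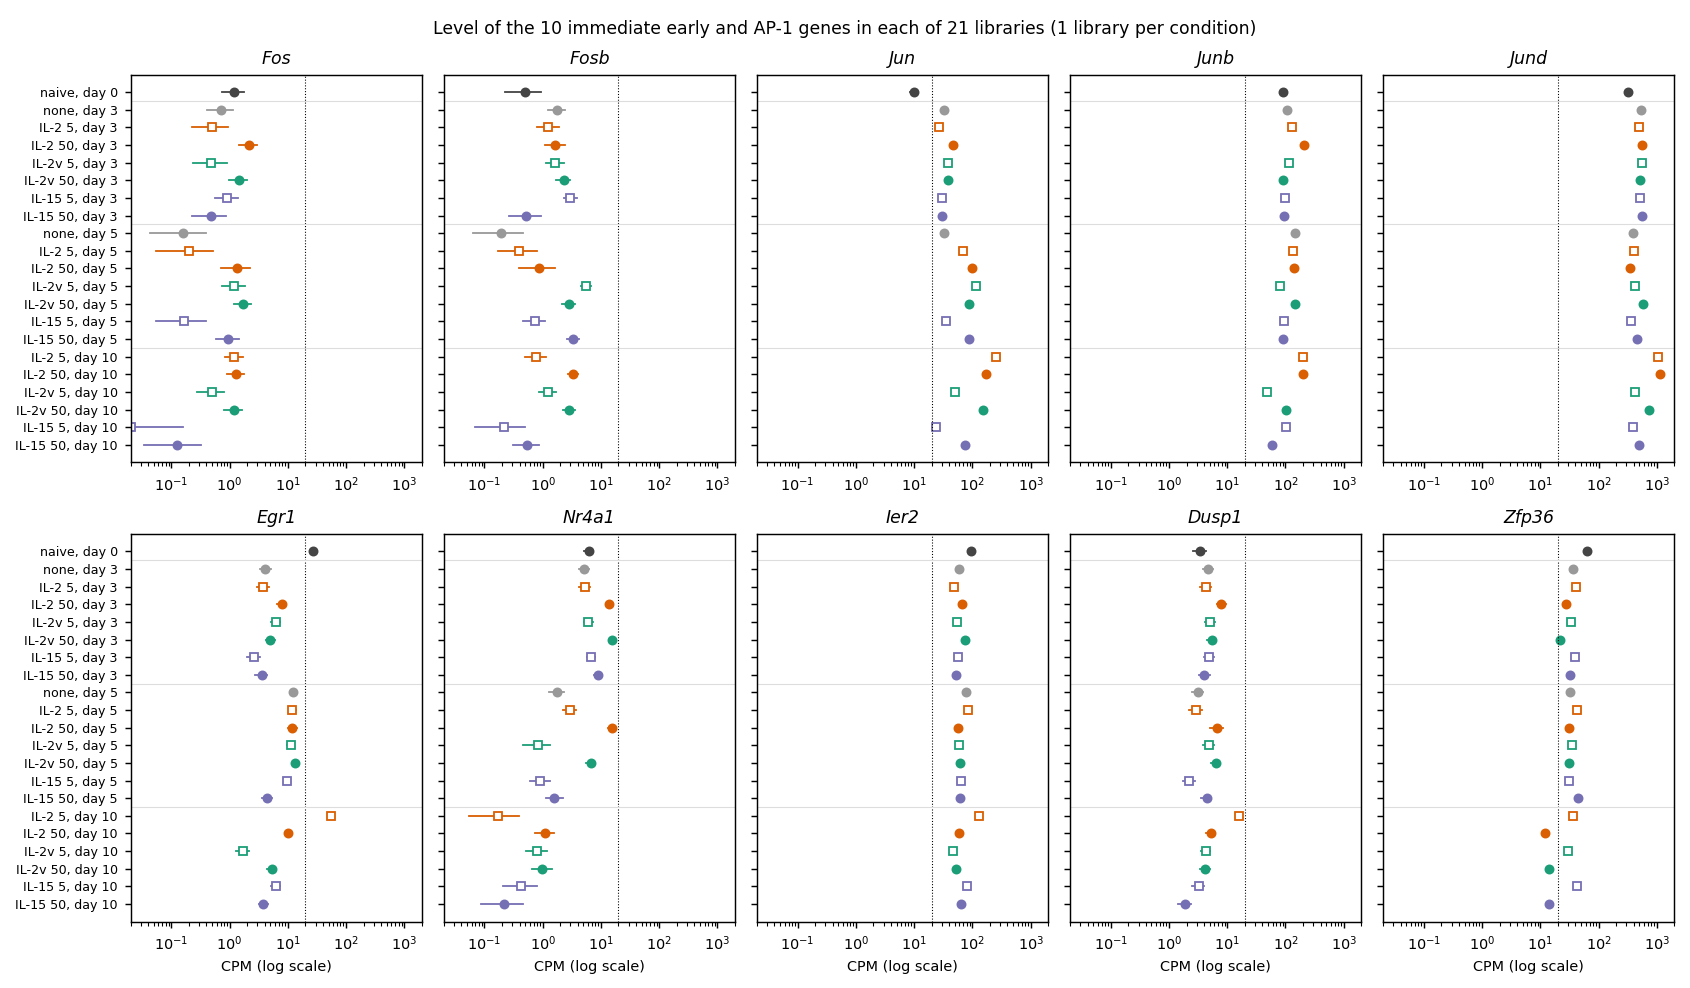
Level of each of the 10 genes (CPM, log scale, horizontal axis) in each of the 21 libraries (rows, with the dose in IU/mL), with exact 95% Poisson intervals for counting error. Open squares are 5 IU/mL, filled circles 50 IU/mL, naive or no cytokine, colours mark the cytokine and the dotted line marks 20 CPM. Fos in the 5 IU/mL IL-15 library of day 10 is 0 CPM and sits at the left edge. Jun spans 9.96 to 255 CPM, while all Fos values lie at or below 2.12 CPM.

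Fos (chr12:85473890-85477273, plus strand), the classical AP-1 partner, was close to undetected throughout. It gave 387 UMIs over all 21 libraries together, from 0 in the 5 IU/mL IL-15 library of day 10, a count that allows up to 0.158 CPM by the exact interval, to 37. Its highest level was 2.12 CPM (1.48 to 2.95), in the 50 IU/mL IL-2 library of day 3, and 0.478% of the cells of that library held a Fos UMI once each cell was thinned to 2000 UMIs. No neighbouring libraries in the order of Fos levels had separate intervals. Naive cells were at 1.19 CPM and the cells without cytokine at 0.719 CPM on day 3 and 0.156 CPM on day 5.

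Fosb (chr7:19302696-19310051, minus strand), the other Fos partner in the set, ranged from 0.195 CPM (0.0632 to 0.454) without cytokine on day 5 to 5.64 CPM (4.61 to 6.84) with 5 IU/mL IL-2v on day 5. That IL-2v library was the only one whose interval stood clear of its neighbour in the order, above the 3.35 CPM of 50 IU/mL IL-15 on day 5. With IL-2v at 5 IU/mL Fosb was at 1.64 CPM on day 3 and 1.23 CPM on day 10, so the day 5 value stood above both.

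Jun (chr4:95049034-95052222, minus strand, a single exon) encodes c-Jun and covered the widest range among the Jun partners, 25.6-fold. Naive cells had 9.96 CPM (8.58 to 11.5), and cells activated without cytokine had 32.2 CPM on day 3 and 32.6 CPM on day 5. On day 3 the 6 cytokine libraries lay close to the cells without cytokine: IL-2 gave 26.8 CPM at 5 IU/mL and 46.9 CPM at 50 IU/mL, IL-2v 38.0 and 38.5 CPM, and IL-15 30.01 and 29.86 CPM. On day 5 the libraries parted: IL-2 gave 67.8 CPM at 5 IU/mL and 99.0 CPM at 50 IU/mL, IL-2v 116 and 88.1 CPM, and IL-15 34.9 and 88.3 CPM. Only the 5 IU/mL IL-15 library stayed near the cells without cytokine on day 5. On day 10 the spread was widest, with IL-2 at 255 CPM (5 IU/mL) and 174 CPM (50 IU/mL), IL-2v at 50.6 and 154 CPM, and IL-15 at 24.2 and 74.8 CPM.

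Set against cells without cytokine of the same day, 5 of the 10 genes were tested in the 12 cytokine libraries: Jun, Junb, Jund, Ier2 and Zfp36. The 5 calls among these 60 values were Jun on day 5, all higher. That is 8.33% of the values tested, the level seen over all genes in the same 12 comparisons, where 8.35% were called and 6.31% were higher. The genes under 20 CPM were not tested and also reached large log2 differences, up to 2.59 for Nr4a1, 2.48 for Fosb and 1.23 for Fos. The ratios to the cells without cytokine were 2.08-fold (1.91 to 2.27) for 5 IU/mL IL-2, 3.04-fold (2.77 to 3.33) for 50 IU/mL IL-2, 3.55-fold (3.28 to 3.85) for 5 IU/mL IL-2v, and 2.71-fold for both 50 IU/mL IL-2v (2.49 to 2.94) and 50 IU/mL IL-15 (2.50 to 2.94). For 5 IU/mL IL-15 the ratio was 1.07. On day 3 the ratios ran from 0.83 to 1.46. These comparisons share 1 control library on each day. The 5 IU/mL IL-2 value lay near the limit of a call: its log2 difference was 1.04 and ran from 0.87 to 1.10 over 10 settings of the processing. With library totals taken without ribosomal protein and mitochondrial genes, 9 values were called in place of 5, and with no expression filter 15. Without the filter all 120 values enter in place of 60. The share of all genes called was not computed under these 2 settings.

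Over days within a cytokine and dose, day 5 against day 3 gave 5 calls among 30 tested, again all Jun and all higher. Of the values of all genes 7.04% were called and 1.79% were higher. They were 2.53-fold (2.28 to 2.81) and 2.11-fold (1.92 to 2.32) for IL-2 at 5 and 50 IU/mL, 3.04-fold (2.80 to 3.30) and 2.29-fold (2.11 to 2.48) for IL-2v, and 2.96-fold (2.70 to 3.24) for 50 IU/mL IL-15. The share of cells with a Mki67 or Top2a UMI, taken as cycling, was 55.7% to 86.9% on day 3 with cytokine and 18.7% to 66.7% on day 5, and Jun was higher in the cycling cells in only 1 of the 21 libraries. In cells without those UMIs, 3 of the 5 calls were left, and the log2 differences of 5 IU/mL IL-2 and 50 IU/mL IL-2v were 0.92 and 0.94. With a pseudocount of 10 in place of 1, the 50 IU/mL IL-2 value fell short of the limit of a call. In cells without cytokine the log2 difference of Jun between day 5 and day 3 was 0.01, and none of the 5 members tested there was called, against 13.1% of all genes.

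Day 10 set the cytokines furthest apart. The 5 IU/mL IL-2 library had 3.76-fold (3.55 to 3.99) more Jun than its day 5 library, while the 5 IU/mL IL-2v library had 2.29-fold (2.14 to 2.44) less than its own, a log2 difference of -1.18 that was -0.97 with TMM scaling. At 5 IU/mL on day 10, Jun was 5.04-fold (4.78 to 5.32) lower with IL-2v than with IL-2 and 10.6-fold (9.68 to 11.5) lower with IL-15. At 50 IU/mL the 3 cytokines lay closer: Jun was 2.33-fold (2.21 to 2.44) lower with IL-15 than with IL-2 (log2 -1.21, from -1.30 to -0.97 over the settings), and IL-2v was at 154 CPM against 174 CPM for IL-2. The dose order also differed by cytokine: on day 10 the 50 IU/mL library was higher than the 5 IU/mL library for IL-2v (3.05-fold, 2.88 to 3.23) and for IL-15 (3.09-fold, 2.82 to 3.40), and lower for IL-2 (174 against 255 CPM). None of these differences between cytokines was tested, since each value is 1 library.

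The 3 libraries of day 10 with the highest Jun, IL-2 at both doses and IL-2v at 50 IU/mL, were also those with the natural killer marker Klrb1c, at 22.0, 21.3 and 36.7 CPM, where all other libraries had at most 3.57 CPM. The second natural killer marker listed, Ncr1, was at or below 0.0336 CPM in every library. The part of this marker in the Jun result was not tested.

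**Figure D2:**
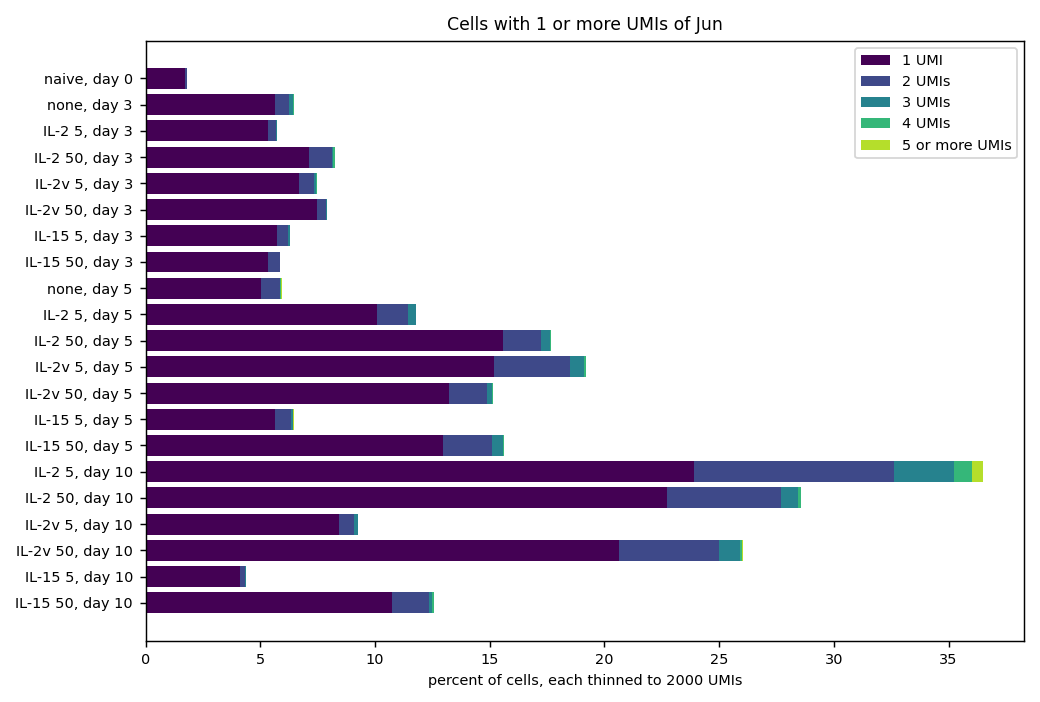
Percent of cells holding 1, 2, 3, 4, or 5 or more UMIs of Jun (horizontal axis, stacked) in each of the 21 libraries (rows), after each cell was thinned to 2000 UMIs. The total runs from 1.79% in naive cells to 36.5% in the 5 IU/mL IL-2 library of day 10.

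In shares of cells, a Jun UMI was held by 1.79% (1.42 to 2.22) of naive cells and by 36.5% (35.3 to 37.7) of the cells with 5 IU/mL IL-2 on day 10, after thinning. In that library 12.6% of cells held at least 2 Jun UMIs, against 0.0895% of naive cells, as the plot of Jun UMIs per cell shows. Cells of a kind that should lack these genes were not part of the series, so no share from free RNA could be set beside these.

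Junb (chr8:84974484-84978718, minus strand), a Jun partner that can oppose c-Jun, varied less, 4.27-fold between the lowest and highest library. Its highest levels were 205.4 CPM with 50 IU/mL IL-2 on day 3 and 203 and 200.4 CPM with 50 and 5 IU/mL IL-2 on day 10. The lowest were 48.1 CPM with 5 IU/mL IL-2v and 58.9 CPM with 50 IU/mL IL-15, both on day 10. Naive cells had 91.0 CPM and activated cells without cytokine 107 CPM on day 3 and 143 CPM on day 5, ratios that did not reach a call. On day 3 the 50 IU/mL IL-2 library stood apart, with Junb 2.24-fold (2.12 to 2.37) lower with IL-2v and 2.21-fold (2.09 to 2.34) lower with IL-15 at the same dose. That library also had the highest sum of heat shock and handling genes, 10261 CPM against 9717 CPM with IL-2v and 7447 CPM with IL-15. The share of cycling cells was 73.8% in it, 86.9% with IL-2v and 58.2% with IL-15. The parts of handling and of cycling were not tested. Exons of the peroxiredoxin gene Prdx2 on the opposite strand overlap 7.52% of the exonic bases of Junb, and whether the counting used strand is not given in the sources used here.

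Jund (chr8:70698949-70700616, plus strand, a single exon) is the Jun partner known for steady expression in resting cells. It lay between 322 CPM in naive cells and 588 CPM in 18 of the 21 libraries. The exceptions were all on day 10: 1045 CPM and 1148 CPM with 5 and 50 IU/mL IL-2, and 746 CPM with 50 IU/mL IL-2v. These are the 3 libraries with Klrb1c above 20 CPM, and their Cd8a and Cd8b1 summed to 642, 308 and 455 CPM, against 710 CPM with 5 IU/mL IL-2v and 1377 and 1139 CPM with IL-15 at 5 and 50 IU/mL on day 10. With 50 IU/mL IL-2 the Cd8a and Cd8b1 sum was also low on day 3 (513 CPM) and day 5 (458 CPM), where Jund was at 566 and 345 CPM. The 4 T cell genes summed to 3331 and 2642 CPM with 5 and 50 IU/mL IL-2 and 2569 CPM with 50 IU/mL IL-2v on day 10. In the other day 10 libraries they summed to 1966 CPM with 5 IU/mL IL-2v and 3131 and 2502 CPM with 5 and 50 IU/mL IL-15. The part of these markers in the Jund result was not tested. With IL-2 it was 2.61-fold (2.55 to 2.67) higher on day 10 than on day 5 at 5 IU/mL and 3.33-fold (3.22 to 3.45) higher at 50 IU/mL. Exons of the antisense gene Gm11175, on the opposite strand, cover 52.6% of the exonic bases of Jund. Jund counts are therefore uncertain if the counting did not use strand, which is not given in the sources used here.

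Egr1 (chromosome 18, 34859823 to 34864984, plus strand) encodes a zinc finger factor that marks recent antigen receptor signalling. Naive cells had 27.0 CPM (24.7 to 29.5). On day 3 Egr1 was low in every library, from 2.58 CPM with 5 IU/mL IL-15 to 7.81 CPM with 50 IU/mL IL-2, with 4.13 CPM without cytokine. On day 5 it was between 4.38 CPM, with 50 IU/mL IL-15, and 13.5 CPM, with 50 IU/mL IL-2v, and the cells without cytokine had 12.3 CPM. On day 10 a single library stood apart: 5 IU/mL IL-2 gave 55.5 CPM (52.8 to 58.2), while 50 IU/mL IL-2 gave 10.2 CPM, IL-2v 1.68 and 5.28 CPM, and IL-15 6.18 and 3.80 CPM at 5 and 50 IU/mL. In the order of Egr1 levels, 18 of the 20 neighbouring pairs had overlapping intervals, and only the steps up to the naive library and from it to this one were separate. Because Egr1 reached 20 CPM in these 2 libraries alone, it entered a comparison only through one of them.

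Egr1 was 6.53-fold (5.22 to 8.25) lower in activated cells without cytokine on day 3 than in naive cells. Within 5 IU/mL IL-2 it was 4.61-fold (4.03 to 5.30) higher on day 10 than on day 5. The day 10 level at 5 IU/mL IL-2 was 32.9-fold (25.2 to 43.9) above 5 IU/mL IL-2v, 8.98-fold (7.57 to 10.7) above 5 IU/mL IL-15 and 5.42-fold (4.77 to 6.18) above 50 IU/mL IL-2. As log2 differences these sizes depend on the pseudocount, since the other libraries are near 0: with 10 in place of 1, the naive difference went from -2.45 to -1.39 and the one with IL-2v from -4.39 to -2.49. In shares of thinned cells it was held by 8.75% (8.05 to 9.48) of that library and by 3.78% (3.24 to 4.38) of naive cells.

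The few cells with an Egr1 UMI in these 2 libraries were read for what else they held. Among naive cells, 169 thinned cells held Egr1, and 19.5% (13.8 to 26.3) of them also held Egr3, a related factor induced by the antigen receptor, against 0.558% of the 4302 naive cells without Egr1. In the same naive cells Nr4a1 was in 13.02% (8.34 to 19.0) against 0.395%, Fos in 4.73% (2.07 to 9.11) against 0.093%, and Zfp36 in 26.0% against 10.4%. In the 5 IU/mL IL-2 library of day 10, 532 cells held Egr1, and Egr3 was in 0.564% (0.116 to 1.64) of them. By separate intervals, Egr3 was not less frequent in these 532 cells than in the other cells of that library. Nr4a1 was in none, which allows up to 0.691% by the exact interval. Since Nr4a1 was in only 0.0164% of all thinned cells of that library, its absence says nothing particular about these 532 cells. Those cells held Junb in 46.8% (42.5 to 51.1) against 28.3% of the 5551 cells without Egr1, and Jun in 43.6% (39.3 to 47.9) against 35.8%. Ier2 and the early activation marker Cd69 were more frequent with Egr1 in both libraries, with Cd69 in 27.8% against 10.6% of naive cells and 45.5% against 30.3% on day 10. Cells are not replicates, and these shares describe 2 libraries.

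**Figure D3:**
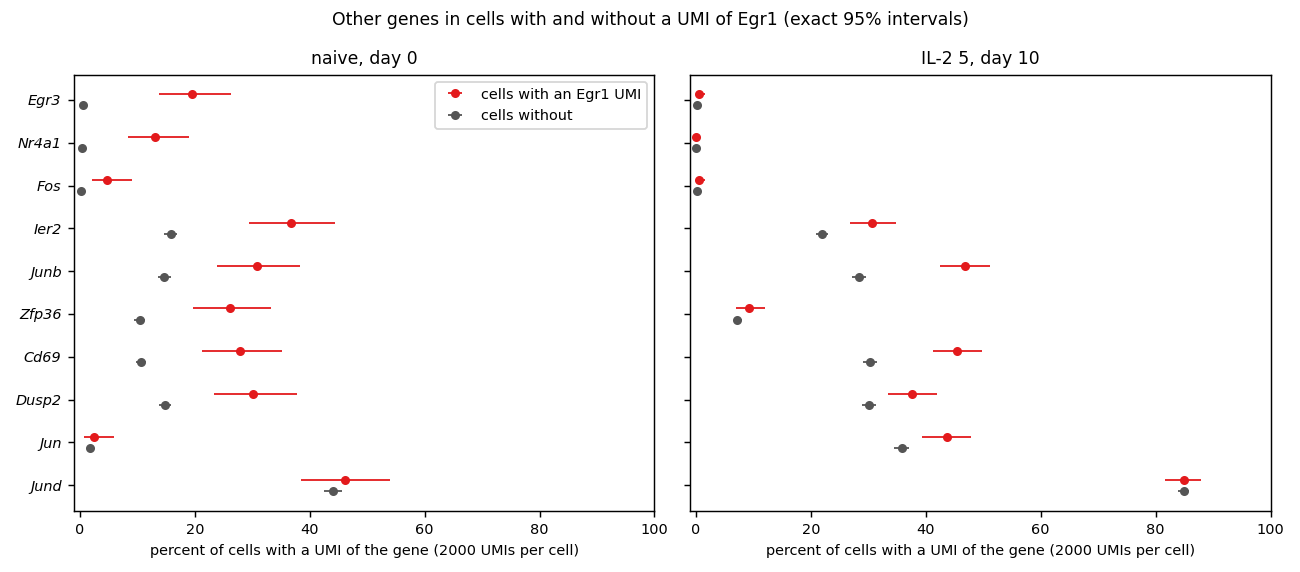
Percent of cells with a UMI of each gene (rows) among cells with (red) and without (grey) an Egr1 UMI, in naive cells (left) and with 5 IU/mL IL-2 on day 10 (right), with exact 95% intervals and cells thinned to 2000 UMIs. Among cells with Egr1, Egr3 and Nr4a1 are at 19.5% and 13.02% in naive cells and near 0 on day 10. Nr4a1 is in 0.0164% of all thinned cells of that day 10 library, and Egr3 is not less frequent with Egr1 there by separate intervals.

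Over all 21 libraries, Egr3 was more frequent in Egr1-positive cells with separate intervals in 9, Dusp2 in 10, Ier2, Junb and Cd69 in 7 each, and Nr4a1 in 6. Zfp36 was so in 4, Fos in 2, Jun in 1 (the 5 IU/mL IL-2 library of day 10), and Jund and Dusp1 in none. In no library was any of these less frequent with Egr1 by that measure. With 5 IU/mL IL-2 on day 5, Egr3 was held by 19.7% (10.9 to 31.3) of 66 Egr1-positive cells against 0.241% of the others, and Nr4a1 by 7.58% (2.51 to 16.8) against 0.153%. Fos was in none of those 66 cells, which allows up to 5.44% by the exact interval. Single cells could hold many Egr1 UMIs, up to 16 in a cell without cytokine on day 5, and the variance of thinned Egr1 counts there was 3.20 times the mean.

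Nr4a1 (chr15:101254269-101274795, plus strand) encodes the orphan nuclear receptor Nur77, another marker of antigen receptor signalling. It never reached 20 CPM and is described without calls. The highest levels were 15.6 CPM (13.3 to 18.1) with 50 IU/mL IL-2 on day 5, 15.5 CPM (13.9 to 17.2) with 50 IU/mL IL-2v on day 3 and 13.8 CPM (12.02 to 15.7) with 50 IU/mL IL-2 on day 3. The cells without cytokine had 5.12 CPM on day 3 and 1.75 CPM on day 5, and naive cells had 6.17 CPM. On day 10 all 6 libraries lay between 0.168 and 1.10 CPM, below every library of day 3. How many of all genes separate these days in this way was not counted. Most pairs were already lower on day 5 than on day 3 at equal cytokine and dose. The ratio interval was below 1 in 5 of those 6 pairs, and log2 differences ran from -2.04 to 0.17. Only 50 IU/mL IL-2 was higher on day 5 (15.6 against 13.8 CPM). Against day 5 at equal cytokine and dose, Nr4a1 was higher on day 10 in 0 of 6 pairs. The ratio interval was below 1 in 4 of them, and log2 differences ran from -2.98 to -0.01. The lowest level, 0.168 CPM (0.0545 to 0.392), was in the 5 IU/mL IL-2 library of day 10, the same library that had the highest Egr1, Jun, Ier2 and Dusp1.

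Ier2 (chr8:84661331-84662852, minus strand, a single exon) varied least, 2.75-fold. It was at 96.2 CPM in naive cells, and 129 CPM (125 to 134) with 5 IU/mL IL-2 on day 10 was the highest value. The other 19 libraries lay between 47.1 CPM, with 5 IU/mL IL-2v on day 10, and 85.5 CPM, with 5 IU/mL IL-2 on day 5. On day 10 Ier2 was 2.75-fold (2.59 to 2.92) lower with 5 IU/mL IL-2v and 2.21-fold (2.09 to 2.35) lower with 50 IU/mL IL-2 than with 5 IU/mL IL-2, the latter at a log2 difference of -1.13 that was -0.83 with TMM scaling. In shares of thinned cells Ier2 was held by 22.7% (21.6 to 23.7) of the cells of the highest library.

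Of the 2 genes that restrain the response, Dusp1 (chr17:26505590-26562128, minus strand) stayed below 20 CPM and is described without calls. It was at 15.9 CPM (14.52 to 17.4) with 5 IU/mL IL-2 on day 10 and at most 7.88 CPM (6.58 to 9.35), with 50 IU/mL IL-2 on day 3, in the other 20 libraries. The ratio of the 5 IU/mL IL-2 library of day 10 to its day 5 library was 5.50 (4.18 to 7.36). Dusp1 was higher in cycling than in other cells in 17 of the 21 libraries. Dusp1 and Fos ordered the libraries most alike of all pairs among the 10 genes (Spearman 0.85, Pearson 0.70 of log2 values, over 21 libraries that share depth differences and days).

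Zfp36 (chr7:28376784-28380253, minus strand) was highest in naive cells, at 64.1 CPM, and the next level was 43.6 CPM with 50 IU/mL IL-15 on day 5. On day 10 the 50 IU/mL libraries had 12.2 CPM with IL-2, 13.996 CPM with IL-2v and 14.1 CPM with IL-15. The 5 IU/mL libraries of that day had 36.9, 29.3 and 42.8 CPM. The 50 IU/mL library was thus lower by 3.03-fold (2.68 to 3.44) for IL-2, 2.09-fold (1.86 to 2.36) for IL-2v and 3.05-fold (2.72 to 3.41) for IL-15. The IL-2v value had a log2 difference of -1.02 that ran from -1.08 to -0.71 over the settings. Of all genes, 21.1% were called in the IL-2 pair, 11.2% in the IL-2v pair and 5.7% in the IL-15 pair. How many of all genes separate the doses in all 3 pairs was not counted. The 50 IU/mL libraries of day 10 were the 3 in which Zfp36 was under 20 CPM, so in these pairs and in those of day 10 against day 5 at this dose it could only be called lower on day 10 with 50 IU/mL. On days 3 and 5 no dose pair was called for Zfp36. At 50 IU/mL it was 2.56-fold (2.19 to 2.99), 2.25-fold (1.98 to 2.55) and 3.10-fold (2.77 to 3.47) lower on day 10 than on day 5, in the order IL-2, IL-2v, IL-15. The log2 differences ran from -1.44 to -0.89 for IL-2 and from -1.46 to -0.75 for IL-2v over the settings.

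Counted over the whole set, bead activation without cytokine gave 2 calls among 6 genes tested, Jun higher by 3.23-fold (2.75 to 3.82) and Egr1 lower, where 19.4% of all 6171 genes tested were called. Each entered only through the library where it was high, so neither could have been called the other way. Across the 6 pairs of equal day and dose, IL-2v against IL-2 gave 6 calls among 30 values, all lower with IL-2v (6.53% of all values called, 2.55% lower). Of these, 5 were Jun, Junb, Jund, Egr1 and Ier2 at 5 IU/mL on day 10, where 14.5% of all genes were called, and the remaining one was Junb at 50 IU/mL on day 3. Egr1 entered these pairs, and those of IL-15 against IL-2, only through the 5 IU/mL IL-2 library of day 10, so it could only come out lower. IL-15 against IL-2 gave 7 calls among 30 values, all lower with IL-15 (8.9% of all values called, 5.68% lower). Apart from Junb at 50 IU/mL on day 3, these calls lay on day 10, where 11.6% of all genes were called at 5 IU/mL and 21.5% at 50 IU/mL. Leaving out the 5 IU/mL IL-2 library of day 10 took these counts from 6 to 1 and from 7 to 4.

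The other 2 kinds of pair gave calls both ways. IL-2v against IL-15 gave 4 calls among 29 values, 3 higher, all Jun, and 1 lower, Junb at 5 IU/mL on day 10 (8.63% of all values called). This count was 2 with totals without ribosomal protein and mitochondrial genes, 1 with a pseudocount of 10 and 11 with no expression filter. The day 10 Jun calls in it lay near the limit, with log2 differences of 1.03 at both doses that ran from 0.83 to 1.15 at 5 IU/mL and from 0.89 to 1.11 at 50 IU/mL. Dose gave 9 calls among 46 values, 4 higher at 50 IU/mL, of Jun and Junb, and 5 lower, of Egr1, Ier2 and Zfp36 (7.96% of all values called). The Junb call, with IL-2v on day 10, had a log2 difference of 1.07 and fell short of the limit with a pseudocount of 10. Of the lower calls only that of Ier2 was free to go either way, since Egr1 and Zfp36 entered through the 5 IU/mL library alone. Of the genes never tested, Nr4a1 and Fos were each higher at 50 IU/mL in 8 of 9 dose pairs. Their ratio intervals were above 1 in 7 and 5 pairs and below 1 in 0. Fosb was higher in 7 pairs and Dusp1 in 5, and each had an interval below 1 in 2. How many of all genes differ by dose in this way was not counted. Day 10 against day 5 gave 8 calls among 31 values, 4 higher and 4 lower (10.4% of all values called), and 5 without the 5 IU/mL IL-2 library of day 10. Of the lower calls 3 were Zfp36, which entered through day 5 alone, and the Egr1 call, higher, entered through day 10 alone. The plot of differences shows the 5 genes that entered every or nearly every pair.

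**Figure D4:**
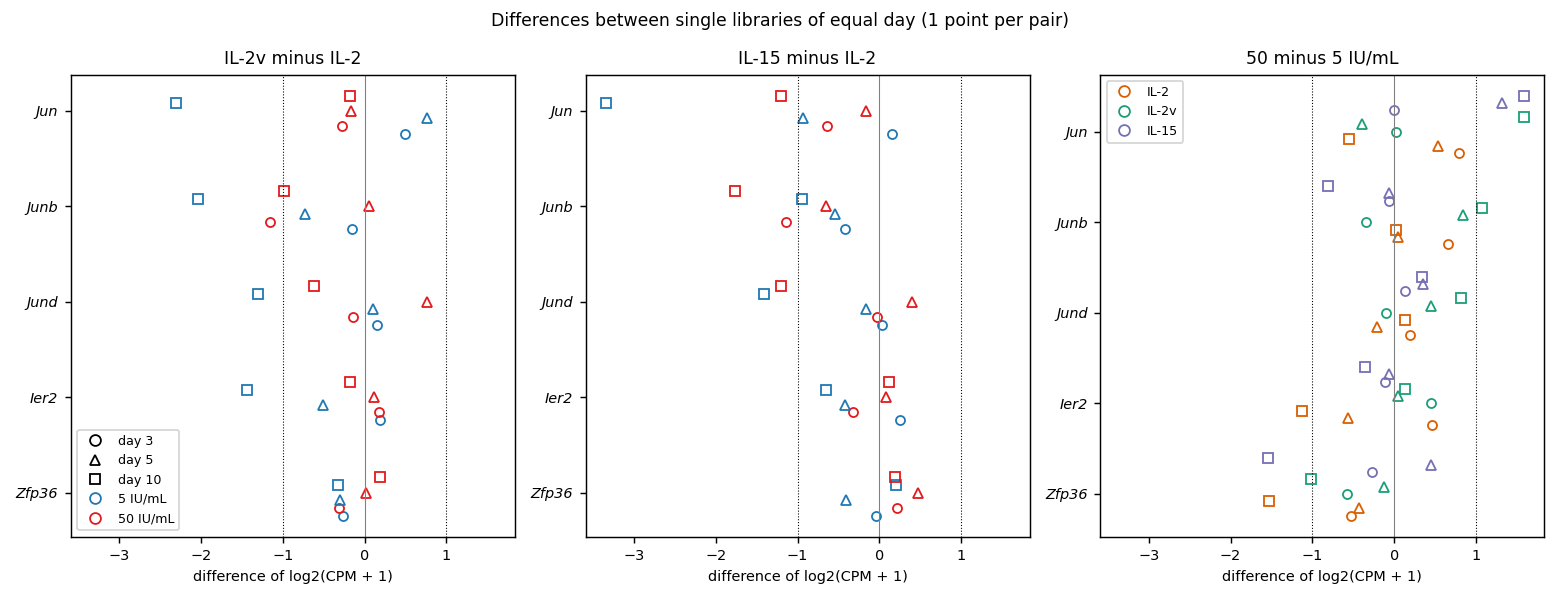
Difference of log2(CPM + 1) between 2 libraries of equal day (horizontal axis) for the 5 genes above 20 CPM in most libraries, for IL-2v minus IL-2, IL-15 minus IL-2 and 50 minus 5 IU/mL. Each point is 1 pair of single libraries, circles are day 3, triangles day 5 and squares day 10, and dotted lines mark the limit of a call. In the left and middle panels colour is the dose, blue for 5 and red for 50 IU/mL, and in the right panel it is the cytokine. The blue squares of Jun lie at -2.31 and -3.35.

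No thinned cell held more than 6 of the 10 genes. In thinned cells with 5 IU/mL IL-2 on day 10 a mean of 1.93 of the 10 genes was detected, and 6.99% of cells held 4 or more of them. Naive cells held a mean of 0.944, with 1.14% holding 4 or more. At least 1 of the 5 genes that are low in most libraries (Fos, Fosb, Egr1, Nr4a1, Dusp1) was held by 11.2% (10.5 to 12.1) of the cells with 5 IU/mL IL-2 on day 10, 4.97% (4.35 to 5.64) of naive cells and 1.16% (0.917 to 1.46) of cells with 50 IU/mL IL-15 on day 10. In naive cells 0.604% (0.398 to 0.877) held 2 or more of these 5, and with 5 IU/mL IL-2 on day 10 the share was 0.395% (0.253 to 0.586). Between genes across libraries, Egr1 and Ier2 had a Spearman correlation of 0.64 and Jun and Zfp36 one of -0.47, as a description of 21 libraries.

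Other genes of the same response were read from lists of related genes. In bead activation without cytokine, among 13 other AP-1 and bZIP genes present, 6 were tested, and Batf3, Crem and Batf were higher and Maf lower. Batf3 and Crem reached 20 CPM only after activation and Maf only in naive cells, which fixed their direction. Batf and Batf3 encode AP-1 partners that work with Irf4, and Irf4 itself went from 1.08 to 39.9 CPM. Among 30 other immediate early genes 18 were tested, 5 higher (led by Irf4, Klf10 and Gadd45b) and 7 lower (led by Sgk1, Btg1 and Ier5). Over all genes 19.4% were called in this comparison. Irf4, Klf10, Gadd45b and Rgs1 reached 20 CPM only after activation, and Sgk1, Socs3 and Nfkbiz only in naive cells, so their direction was fixed too. Btg1, an antiproliferative gene, went from 1140.3 to 293 CPM.

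With 50 IU/mL IL-2 against no cytokine, 7 of the 13 other AP-1 and bZIP genes present were tested on day 3. Of these, 5 were higher (Fosl2, Batf3, Crem, Atf4 and Mafg), with 9.19% of all genes called. On day 5, 8 were tested and 5 were higher (Fosl2, Crem, Atf4, Mafg and Maf), with 24.0% of all genes called. Fosl2 and Mafg on day 3, and Fosl2, Crem, Mafg and Maf on day 5, reached 20 CPM only in the IL-2 library and so could only come out higher. Fosl2, the Fos family partner Fra-2, was at 68.9 and 117 CPM in these libraries and at 4.67 and 2.10 CPM without cytokine on days 3 and 5.

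Where Jun was highest, with 5 IU/mL IL-2 on day 10, 10 of 20 other immediate early genes tested were higher than on day 5 and 3 were lower, with 6.63% of all genes called. Csrnp1, Nfkbiz, Rgs1 and Socs3 among the higher and Gadd45b among the lower genes reached 20 CPM on 1 of the days only. The 30 genes of the list summed to 3151 CPM on day 5 and 2922 CPM on day 10, with Btg1 alone going from 1587 to 699 CPM. Cd69 went from 30.9 to 213 CPM and Klf6, a zinc finger factor, from 77.1 to 289 CPM. Against this library, 5 IU/mL IL-2v on day 10 had 9 of 18 of those genes lower and none higher, with 14.5% of all genes called. Of these, Rgs1, Ier3, Csrnp1, Nfkbiz and Socs3 reached 20 CPM only with IL-2 and could only come out lower. Of the 10 genes of the MAP kinase feedback list 3 were tested there, and Dusp5 and Dusp6 entered only through the IL-2 library, so they could only come out lower. Dusp2, a nuclear phosphatase of MAP kinases, was at 37.0 CPM against 214 CPM, Dusp6 at 11.5 against 60.2 CPM and Dusp5 at 17.5 against 39.5 CPM.

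Because these genes can also respond to the handling of cells, heat shock and handling genes were read beside them. The 16 genes summed to 4460 CPM in naive cells, the lowest value, and to 10261 CPM with 50 IU/mL IL-2 on day 3, the highest. The share of cycling cells was 3.01% and 73.8% in these libraries. The sum was 9717 CPM at the highest cycling share, 86.9% (50 IU/mL IL-2v, day 3). It was 7609 CPM at a share of 13.4% (50 IU/mL IL-2, day 10). The part of cycling in this sum was not tested. From day 5 to day 10 with 5 IU/mL IL-2 the sum went from 4736 to 7091 CPM, and Jun was also higher. At 50 IU/mL it went from 8079 to 7609 CPM with IL-2 and from 8226 to 7767 CPM with IL-2v, while Jun was higher. At 5 IU/mL it went from 5990 to 6665 CPM with IL-2v and from 4975 to 5127 CPM with IL-15, while Jun was lower. With 50 IU/mL IL-15 both were lower on day 10 (sum 5129 to 5034 CPM). From day 5 to day 10 with 5 IU/mL IL-2, none of the 11 genes tested of this list was called (6.63% of all genes), and against that library 5 IU/mL IL-2v had 1 of 11 higher (Hspd1) and none lower (14.5% of all genes). With 11 genes, both counts are near these shares. Hspa1a, an inducible heat shock gene, was at 65.9 and 128 CPM with 50 IU/mL IL-2 on days 3 and 5 and at most 1.28 CPM in the other 19 libraries. The day 3 library had the highest Fos and Junb and the day 5 library the highest Nr4a1. The intervals of these top values overlapped those of the next library in the order, where Hspa1a was at most 1.28 CPM. That library was 50 IU/mL IL-2v on day 5 for Fos, 50 IU/mL IL-2 on day 10 for Junb and 50 IU/mL IL-2v on day 3 for Nr4a1. In the 5 IU/mL IL-2 library of day 10, Hsp90aa1 was held by 33.5% (31.6 to 35.5) of Jun-positive cells and by 37.4% (35.9 to 39.0) of the others. It was less frequent with Jun, with separate intervals, in 4 of the 21 libraries and more frequent in none, with a median ratio of the shares of 0.969, and Hspa8 differed in neither direction in any. The median share of mitochondrial UMIs was 3.50% in that library and 2.65% to 4.96% over all libraries. The part of handling in the levels of the 10 genes was not tested.

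Genes whose levels ordered the libraries most like a member were sought among 5490 genes over 21 libraries, as a description. For Fos these were Arcn1, Cd69, Ugp2, Psd4 and Trip12 (Spearman 0.86 to 0.87), and for Nr4a1 they were Strbp, Map3k7, Tnfrsf4, Braf and Atp13a3 (0.86 to 0.88). The levels of Fos rest on few UMIs, so its order is loose. For Jun, chosen after its values were seen, they were Ifitm1, Ifitm3, Txndc17, Fgl2 and Ifitm2 (0.86 to 0.93). The Ifitm genes belong to the same family, and whether any reads were shared among them was not checked.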

How the data were processed

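The authors deposited raw UMI counts per gene symbol and cell, 1 table for each of 21 libraries, as whole numbers that are not normalized. Per the submitters' processing notes, Cell Ranger, Seurat 4.0.1 and 3.0.2 and the mm10 build were used. The roles of these tools, the annotation, any doublet removal and the use of strand in counting are not given in the sources used here. The tables hold 1002 to 13407 UMIs per cell, so both ends may have been trimmed before deposit.

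The cell filter asked for 1000 UMIs, 500 genes and no more than 10% mitochondrial UMIs, and removed 2 cells in all. UMIs were summed per library (10589950 to 32648496) and scaled to CPM. A gene entered a comparison of 2 libraries at 20 CPM in either, and was called at a difference of 1 or more in log2(CPM + 1), a scale that understates changes of low genes. The same limits were applied to all 17516 genes, which gives the percentages called over all genes. With 1 library per condition no pair of conditions could be tested, and no model over the crossed cytokines, doses and days was fitted. CPM values have exact Poisson 95% intervals, ratios exact conditional binomial ones and shares exact Clopper-Pearson ones, and all cover counting error only. For shares, each cell was thinned to 2000 UMIs, leaving out 57 to 393 shallower cells per library. No doublet caller was run, and leaving out cells above 2 times the median UMIs was an alternative.

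The 10 members, the related gene lists and the marker lists were chosen with earlier results of these data known. Counts are given for other AP-1 and bZIP genes, other immediate early genes, MAP kinase feedback genes and heat shock and handling genes, in chosen comparisons. No counts are given for the other related lists. The plan was to name up to 3 genes with the largest rise and the largest fall in a comparison. More are named where all called genes are listed or where a limit of the filter applies to them. The genes most alike to Fos and Nr4a1 are the 5 with the highest Spearman correlation over libraries among genes whose mean reached 20 CPM, and the same for Jun was added after its values were seen. Of the listed genes, 6 were not among the symbols. Gene coordinates are GENCODE vM21 on GRCm38, the assembly that mm10 names, and start site windows are RefSeq, GRCm38.p6. Alternatives were all barcodes, at most 5% mitochondrial UMIs, the doublet limit, TMM scaling (edgeR 4.0.16), a pseudocount of 10, no expression filter, the mean of single-cell CPM, library totals without ribosomal protein or mitochondrial genes, noncycling cells alone (no UMI of Mki67 or Top2a), and other thinning. Leaving out the 5 IU/mL IL-2 library of day 10 was added after seeing the data. The steps were tested on simulated counts and run in Python 3.11.15 with numpy 2.4.6, pandas 2.3.3 and scipy 1.17.1.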

Additional observations from a re-analysis of the deposited data

Results flagged for a closer look

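Jun moved in opposite directions from day 5 to day 10 in 2 libraries of equal dose. With 5 IU/mL IL-2 it was higher on day 10 by 1.90 on the log2 scale (67.8 to 255 CPM), and with 5 IU/mL IL-2v the log2 difference was -1.18 (116 to 50.6 CPM). With TMM scaling the IL-2v difference fell short of the limit of a call. Each value compares 1 library with 1 library, and the difference between the cytokines was not tested. The IL-2 library of day 10 also held 22.0 CPM of Klrb1c, where the IL-2v library held 3.31 CPM, and its share of cycling cells was 18.2% against 40.6%. In noncycling cells (no UMI of Mki67 or Top2a) Jun was at 282 CPM with IL-2 and 55.1 CPM with IL-2v on day 10, and at 71.4 and 130.5 CPM on day 5, which is the same pattern.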

How the results depend on the processing

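No fit with a replicate block was made, since each group holds 1 replicate number, and pairs of libraries matched on cytokine, dose or day were not fitted together. Of the 46 calls over 530 values, 46 were kept with all barcodes, 45 with at most 5% mitochondrial UMIs, 44 without cells above 2 times the median UMIs, 43 with the mean CPM of single cells, 42 in noncycling cells (no Mki67 or Top2a UMI), 41 with TMM scaling, 41 with totals without ribosomal protein and mitochondrial genes and 37 with a pseudocount of 10. New calls numbered 18 with totals without ribosomal protein and mitochondrial genes, 4 with TMM scaling, 2 with at most 5% mitochondrial UMIs and 1 in noncycling cells. No call changed direction under these settings. The counts of called members differed by more than 1.5 times in 16 of 85 recomputed counts. With no expression filter they were 3 for no cytokine day 5 against day 3 (0 in the text), 15 for cytokine against no cytokine (5), 11 for IL-2v against IL-2 (6), 18 for IL-15 against IL-2 (7), 11 for IL-2v against IL-15 (4), 19 for dose (9), 15 for day 5 against day 3 (5) and 18 for day 10 against day 5 (8), since values of genes under 20 CPM in both libraries then enter. With totals without ribosomal protein and mitochondrial genes they were 1 for no cytokine day 5 against day 3, 9 for cytokine against no cytokine and 2 for IL-2v against IL-15, with a pseudocount of 10 the last was 1, and in noncycling cells day 5 against day 3 gave 3. The share of all genes called was not computed under these settings, so these counts have no such share beside them. The cause of these differences was not tested. Without the 5 IU/mL IL-2 library of day 10 the counts were 1 for IL-2v against IL-2, 4 for IL-15 against IL-2 and 5 for day 10 against day 5, with fewer pairs compared. Depth limits Fos most, at 0 to 37 UMIs per library. Shares of cells depend on the UMIs kept per cell: thinning to 1000 UMIs moved 171 of 210 member shares beyond their interval, and no thinning moved 193.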
